A study of Mus musculus with 13 samples.

Results

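The 6 ganglia samples of TH-MYCN+/+ mice were examined for how far genes of dividing cells and genes of mature sympathetic neurons varied together from one sample to the next. These were the arrays titled as TH-MYCN ganglia at 2 weeks, out of 13 arrays in all, and the other 7 arrays came from wild-type littermates of the same age. Every sample was total RNA of superior cervical and coeliac ganglia, removed surgically from animals aged 2 weeks, labelled with Cy3 and measured on a 1-colour Agilent array. The labels state the genotype as TH-MYCN+/+, so all 6 samples carry the transgene on both copies, and no test between genotypes was made. They do not say whether each array came from a separate animal or from pooled ganglia, so each p-value reflects only how these arrays differ, which may be technical in part. Mki67 was chosen by measured values of these same arrays as an index of proliferation and Th as an index of maturity, with Insm1 and Alk as further markers, so the relations among these 4 genes describe the samples and are not independent evidence.

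TH-MYCN mice express a human MYCN cDNA from the tyrosine hydroxylase promoter, which is active in sympathetic neurons and their precursors, and develop tumours that resemble human neuroblastoma. Sympathetic neuroblasts normally divide while they already make catecholamine enzymes, then leave the cell cycle, extend axons and form synapses. In homozygous animals some ganglion neuroblasts keep dividing after birth. MYCN is a transcription factor that pairs with MAX, binds E-box letters and drives genes of growth and division. In whole ganglia, fewer cells of a type and less RNA per cell cannot be told apart, and this holds for every level given here.

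The promoters of 6 genes are shown: both indices, and the mitosis and DNA replication genes with a window that had the highest correlation with Mki67, Top2a and Birc5, and Mcm3 and Pcna. Each window holds 300 bases around the start of the gene, 5′ to 3′ on the gene's own strand, from RefSeq on build GRCm38.p6. Capitals mark letters of motifs found on either strand: CCAAT, the box bound by NF-Y; TTTGAA or TTCGAA, the cell cycle genes homology region (CHR) bound by the DREAM and MuvB complexes; TTTCGCGC or TTTGGCGC, letters bound by E2F factors; and CACGTG, the E-box. The windows lie at chr7:135716330-135716629 for Mki67, chr11:99024140-99024439 for Top2a, chr11:117848987-117849286 for Birc5, chr1:20820263-20820562 for Mcm3, chr2:132253131-132253430 for Pcna and chr7:142899946-142900245 for Th, on the plus strand for Birc5 and on the minus strand for the others.
Mki67: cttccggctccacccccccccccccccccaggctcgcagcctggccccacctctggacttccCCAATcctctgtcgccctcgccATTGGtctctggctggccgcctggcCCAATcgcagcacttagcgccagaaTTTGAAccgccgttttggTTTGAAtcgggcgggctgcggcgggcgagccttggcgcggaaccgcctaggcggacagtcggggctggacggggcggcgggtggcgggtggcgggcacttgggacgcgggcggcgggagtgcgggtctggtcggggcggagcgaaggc
Top2a: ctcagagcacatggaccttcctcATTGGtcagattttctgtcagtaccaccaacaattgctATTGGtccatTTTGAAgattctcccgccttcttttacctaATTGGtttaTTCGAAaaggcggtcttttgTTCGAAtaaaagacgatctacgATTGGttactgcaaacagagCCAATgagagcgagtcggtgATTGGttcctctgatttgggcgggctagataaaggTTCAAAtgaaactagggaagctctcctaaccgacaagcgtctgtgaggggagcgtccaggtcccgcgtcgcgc
Birc5: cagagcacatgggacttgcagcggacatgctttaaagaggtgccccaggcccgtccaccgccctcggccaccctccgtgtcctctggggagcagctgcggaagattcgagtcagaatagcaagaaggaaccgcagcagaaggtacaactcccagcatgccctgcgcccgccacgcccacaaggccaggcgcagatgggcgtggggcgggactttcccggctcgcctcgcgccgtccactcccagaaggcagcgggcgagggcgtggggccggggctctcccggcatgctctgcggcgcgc
Mcm3: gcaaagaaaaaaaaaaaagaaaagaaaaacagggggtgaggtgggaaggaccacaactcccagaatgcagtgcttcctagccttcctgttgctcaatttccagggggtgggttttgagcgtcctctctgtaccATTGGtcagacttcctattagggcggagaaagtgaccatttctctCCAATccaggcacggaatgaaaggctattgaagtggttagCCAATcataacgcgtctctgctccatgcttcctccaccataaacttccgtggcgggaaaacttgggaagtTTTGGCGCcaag
Pcna: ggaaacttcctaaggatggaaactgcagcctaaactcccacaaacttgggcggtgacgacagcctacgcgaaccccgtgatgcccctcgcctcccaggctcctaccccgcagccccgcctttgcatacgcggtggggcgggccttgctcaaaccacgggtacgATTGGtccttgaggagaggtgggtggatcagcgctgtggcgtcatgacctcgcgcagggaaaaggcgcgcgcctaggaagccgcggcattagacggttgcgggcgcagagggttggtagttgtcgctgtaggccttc
Th: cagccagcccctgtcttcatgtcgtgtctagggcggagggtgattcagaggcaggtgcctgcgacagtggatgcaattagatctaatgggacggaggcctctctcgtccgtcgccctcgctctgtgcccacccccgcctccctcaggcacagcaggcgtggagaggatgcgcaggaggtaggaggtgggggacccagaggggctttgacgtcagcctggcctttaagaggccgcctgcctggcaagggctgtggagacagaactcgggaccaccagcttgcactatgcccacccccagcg
The Mki67 window held 3 CCAAT boxes and 2 CHR matches. That of Top2a, a topoisomerase needed to separate chromosomes, held 6 and 4. Mcm3, a subunit of the replicative helicase, had 3 CCAAT boxes and 1 E2F match in its window. The Pcna window held 1 CCAAT box and no other match. Neither the Birc5 window nor the Th window held any of these letters, which says nothing about the factors that act there.

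Mki67, a protein of the chromosome surface that is made only in cycling cells, was measured at 14.27, 14.56, 14.41, 14.93, 14.38 and 14.61 on replicates 1 to 6, as quantile-normalized log2 intensity. Replicate 4 was highest and replicate 1 lowest, a difference of 1.58-fold. Th, tyrosine hydroxylase, which catalyses the first step towards catecholamines, was measured at 16.02, 15.69, 15.82, 15.05, 16.42 and 15.90 on the same arrays. Here replicate 4 was lowest and replicate 5 highest, a difference of 2.58-fold. Mki67 spanned 0.66 log2 units and Th 1.37. Of the genes above background on all 6 arrays, 64.2% spanned less than Mki67 and 95.3% less than Th, and the median gene spanned 0.53. A second Mki67 probe read 13.95, 14.45, 14.34, 14.95, 14.25 and 14.58, and its correlation with the probe used was 0.98.

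**Figure D1:**
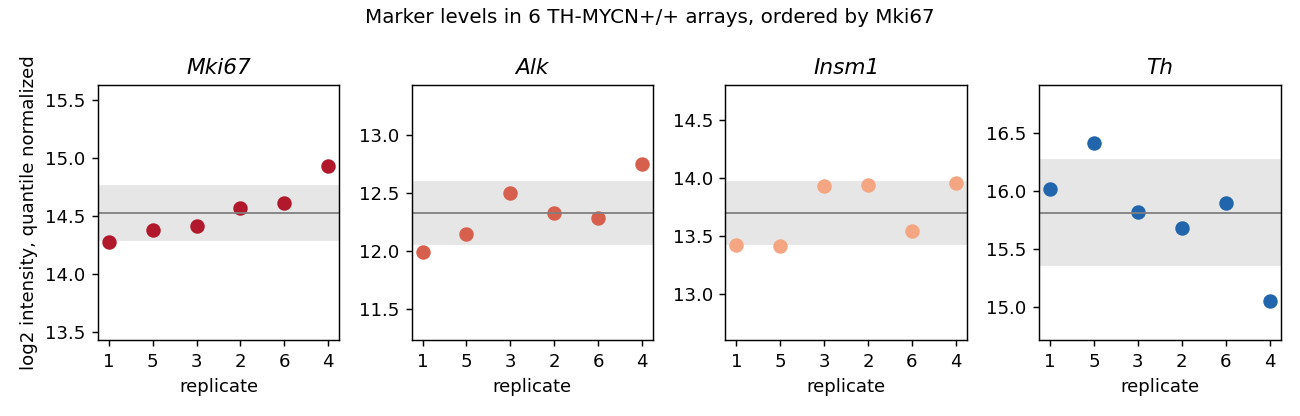
Quantile-normalized log2 intensity of Mki67, Alk, Insm1 and Th on the 6 TH-MYCN+/+ arrays, 1 point per array, ordered by Mki67; the line is the mean, the grey band 1 SD either side, and all panels span the same number of log2 units. Replicate 4 is highest for Mki67 at 14.93 and lowest for Th at 15.05.

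Insm1, a zinc-finger factor of neuroendocrine and neuronal precursors, read 13.42, 13.94, 13.93, 13.96, 13.41 and 13.54. Its levels fell into a higher set, replicates 2, 3 and 4, and a lower set, replicates 1, 5 and 6. Within the higher set, at 13.94, 13.93 and 13.96, the rank order rested on very small differences. The same held between replicates 1 and 5, at 13.42 and 13.41. Alk, a receptor tyrosine kinase of the sympathetic lineage that is mutated in some human neuroblastomas, read 11.99, 12.33, 12.50, 12.75, 12.14 and 12.28. Alk was highest on replicate 4 and lowest on replicate 1, as Mki67 was.

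Mki67 was lower where Th was higher, with Pearson r = -0.85 and an exact two-sided permutation p of 0.0431 over the 720 pairings of 6 arrays (Spearman rho = -0.77, exact p = 0.103). Adjusted over the 6 relations among the 4 genes, the exact p for r was 0.055, so the relation did not pass 0.05. The value rested on replicate 4, since r was -0.51 without it and -0.62 without both replicates 1 and 4, the arrays farthest from the median of Mki67. Mki67 and Alk had r = 0.84 (exact p = 0.0403, adjusted 0.055; rho = 0.77, exact p = 0.103), which was 0.55 without replicate 4 and 0.03 without replicates 1 and 4. Mki67 and Insm1 had r = 0.60 (exact p = 0.167; rho = 0.77, exact p = 0.103), and 0.13 without replicates 1 and 4.

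Th and Insm1 ran in exactly opposite rank order on the 6 arrays, although part of that order rested on near-equal Insm1 readings. Their rho was -1, with an exact permutation p of 0.00278, the smallest that 6 arrays allow, and 0.0167 after adjustment over the 6 relations. That adjustment does not cover the choice of these markers, which used measured values of these same arrays, so the p-value is descriptive only. The Pearson r of this pair was -0.78 (exact p = 0.00833, adjusted 0.05), and -0.90 without replicates 4 and 5, the arrays farthest from the median of Th. Th and Alk had r = -0.84 (exact p = 0.0458, adjusted 0.055; rho = -0.89, exact p = 0.0333, adjusted 0.0667), which was -0.56 without replicate 4 and -0.71 without replicates 4 and 5. For Insm1 and Alk r was 0.84 (exact p = 0.0167, adjusted 0.05; rho = 0.89, exact p = 0.0333, adjusted 0.0667), and it was 0.85 without replicate 4 and 0.61 without replicates 1 and 5. When arrays were scaled to their E1A spike-in probes in place of quantile normalization, r came to 0.05 for Mki67 with Th, 0.02 for Th with Alk and -0.23 for Th with Insm1. For Mki67 with Th, r was -0.70 as deposited, -0.98 with arrays centred on their median and -0.97 with arrays centred on their 75th percentile. The rho of Th with Insm1, the one value past 0.05 after adjustment, was -0.03 under scaling to E1A (exact p = 1). It was -0.77 as deposited (exact p = 0.103) and -0.83 with arrays centred on their median (exact p = 0.0583). It was -1 without any one array, which adds no support. An exactly opposite order holds for any part of the arrays, apart from renormalization.

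Several values depended on how the arrays were scaled. The mean level of the E1A spike-in probes ranged from 11.29 to 12.30 over the 6 arrays as deposited, a span of 1.02 log2 units, and scaling to it adds 1 constant to all genes of an array. The deposited array medians lay between 4.58 and 5.07, and 56.3% to 62.9% of probes were above background. No relation of these 3 measures with Mki67 or Th passed adjustment over the 6 tests (exact permutation, smallest adjusted p 0.925 for r and 0.617 for rho), although r of the deposited median with Mki67 was 0.51 (rho = 0.77) and 0.94 without replicates 1 and 4. A difference between sets of genes within an array is not altered by such a constant. The mean of the mitosis genes minus the mean of the maturation genes, stood at -0.59, 0.14, 0.24, 0.88, -0.47 and -0.19 from its average on replicates 1 to 6, and at -0.60, 0.11, 0.22, 0.87, -0.44 and -0.16 in the values as deposited. On both scales replicate 4 was highest and replicates 1 and 5 lowest, with replicates 2 and 3 above replicate 6. Mki67 minus Th stood at -0.46, 0.17, -0.13, 1.17, -0.75 and 0.00 from its average.

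Each of the other 21892 genes was fitted on the Mki67 level of the arrays with limma. No gene passed a Benjamini-Hochberg adjusted p under 0.05 (percent called 0), the smallest adjusted p being 0.139, while 3601 genes, 16.4%, had an unadjusted p under 0.05. The fit on Th called no gene either (percent called 0), with a smallest adjusted p of 0.205 and 3558 genes, 16.3%, at an unadjusted p under 0.05. Single genes are therefore described by their Pearson r and not as changed. As a line for description, 7.59% of all genes had r of at least 0.8 with Mki67 and 7.07% had r of at most -0.8; with Th these shares were 7.35% and 6.86%. Among the 14627 other genes above background on all 6 arrays they were 9.51% and 9.52% with Mki67, and 9.91% and 8.26% with Th. The balance of the 2 sides depended on the scaling: with Mki67, 1662 and 1547 genes stood at 0.8 or above and at -0.8 or below, against 5499 and 52 as deposited and 7613 and 21 under scaling to E1A. With Th the counts were 1610 and 1502, against 664 and 1751 as deposited and 2342 and 15 under scaling to E1A. At the edge of the line, Ctag2l1 was just inside at 0.80049 with Mki67 and Plk1, a mitotic kinase, just outside at 0.79839.

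Genes on one side of Mki67 were often on the other side of Th. Of the 1662 genes with r of at least 0.8 with Mki67, 848 had r of at most -0.8 with Th, which was 51.0% of that list and 56.5% of the Th list. In the other direction 900 genes were shared, 58.2% of the 1546 genes at -0.8 or below with Mki67 other than Th and 55.9% of those at 0.8 or above with Th. No gene was past the line in the same direction with both, and with r = -0.85 between Mki67 and Th none could be. Mki67 and Th were themselves negatively related on these arrays, so these overlaps are not independent of that relation. A principal component analysis of the 14628 genes above background, Mki67 and Th among them, gave a first component with 39.8% of the variance and scores of -0.53, 0.03, 0.27, 0.72, -0.27 and -0.23 on replicates 1 to 6. Its r was 0.80 with Mki67 and -0.84 with Th, and its lowest loadings were those of skeletal muscle genes, led by Myh4, Myh8 and Tnnc2, so it also holds variation in muscle RNA.

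**Figure D2:**
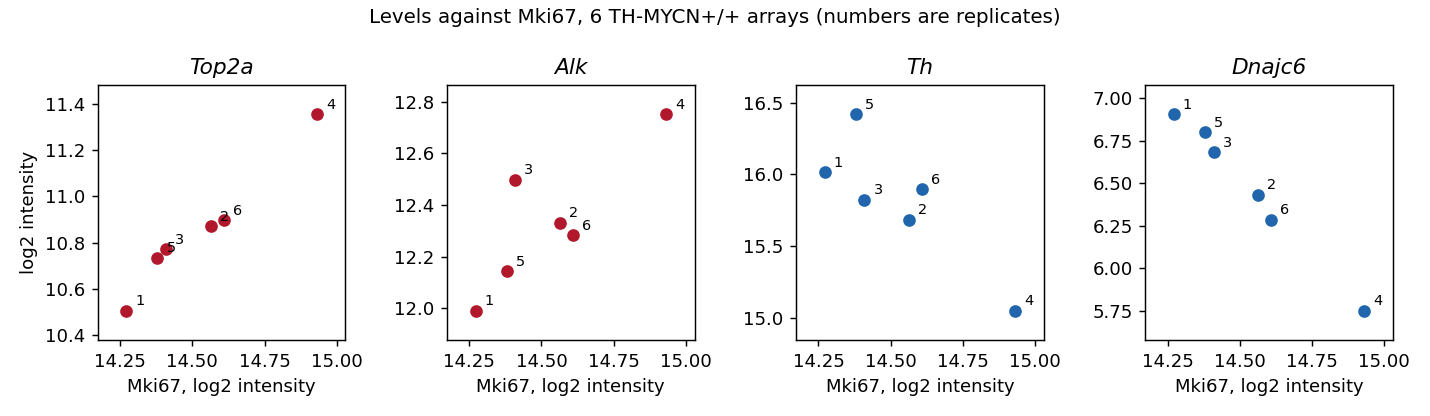
Levels of Top2a, Alk, Th and Dnajc6 against Mki67 on the 6 TH-MYCN+/+ arrays, in quantile-normalized log2 intensity; each point is 1 array with its replicate number. Replicate 4 stands apart in every panel, and the other 5 arrays keep the order of Dnajc6 (r = -0.99 without replicate 4) but not that of Th (r = -0.51).

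Mitosis genes were higher where Mki67 was higher. Of 30 measured mitosis genes, 18 had r of at least 0.8 with Mki67 and 0 had r of at most -0.8, and the median r was 0.83, beside 0.02 over all genes. All 30 had a positive r, 28 were highest on replicate 4, and 16 were lowest on replicate 1 and 12 on replicate 5. The share of all genes that were highest or lowest on each array is not given here. Counts of this kind, for this list and the others, are therefore descriptive only. Top2a read 10.51, 10.87, 10.77, 11.36, 10.74 and 10.90 and had r = 0.98, which was 0.94 without replicate 4. Ccna2, the cyclin of S phase and G2, read 12.69, 13.23, 13.10, 13.59, 12.69 and 13.19, with r = 0.93 and 0.87 without replicate 4. Both genes kept the order of Mki67 among the 5 lower arrays fairly well, whereas the list as a whole did so less, with a median r of 0.55 without replicate 4. Birc5, or survivin, a subunit of the chromosomal passenger complex, had r = 0.92 (0.71 without replicate 4), Nusap1, a spindle protein, 0.91 (0.73), and Ube2c, which loads ubiquitin for the anaphase-promoting complex, 0.71 (0.28). With Th, 19 of 30 mitosis genes had r of at most -0.8, the median was -0.86 (-0.07 under scaling to E1A), and Nusap1 reached -0.97 (-0.90 without replicate 4).

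DNA replication genes had the highest median r with Mki67 of the 29 lists, 0.89, and kept 0.81 without replicate 4. Of 31 genes, 20 had r of at least 0.8 with Mki67, and 30 were highest on replicate 4. Mcm3 read 12.31, 12.75, 12.55, 13.08, 12.40 and 12.65, with r = 0.97 and 0.92 without replicate 4, and its second probe had r = 0.93. Pcna, the sliding clamp of DNA polymerases, read 13.56, 13.86, 13.67, 14.11, 13.72 and 13.78 (r = 0.97). Prim1, the primase that starts new strands, and Mcm2, another helicase subunit, both had r = 0.96, or 0.92 and 0.88 without replicate 4. With Th the median was -0.83 and 20 of 31 genes had r of at most -0.8, but under scaling to E1A the median with Th was 0.00 and that with Mki67 was 0.97.

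Genes of the entry into S phase were less uniform. Of 18 measured G1/S genes 6 had r of at least 0.8 with Mki67, with a median of 0.76 and 4 negative values. Cdc25a, a phosphatase that activates cyclin-dependent kinases, read 11.03, 11.44, 11.30, 11.65, 11.19 and 11.40 (r = 0.96, 0.95 without replicate 4). Ccnd1, or cyclin D1, which is abundant in neuroblastoma, read 14.46, 14.73, 14.59, 14.90, 14.49 and 14.63 (r = 0.95, 0.86 without replicate 4). E2f7, a repressor of E2F targets, had r = 0.92 with the probe used and -0.44 with its second probe, so its direction is uncertain.

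Cell cycle exit genes did not follow Mki67 as a list, with a median r of 0.12 over 15 genes and 1 gene past the line in each direction. Cdkn2a, which encodes the inhibitors p16 and p19Arf, was on the positive side (r = 0.81, 0.99 without replicate 4) at levels of 6.80 to 7.75. Cdkn1a, the p53 target p21, was on the negative side at 10.34, 10.06, 9.84, 9.53, 10.19 and 9.85 (r = -0.88), but the mean of its probes gave r = 0.01 and scaling to E1A 0.21. Cdkn1c, or p57, which marks newly postmitotic neurons, had r = -0.50, which was 0.34 as deposited and 0.47 under scaling to E1A.

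Ribosome biogenesis genes, a class of MYC targets, also followed Mki67 on the quantile-normalized scale. Their median r was 0.74 over 24 genes, of which 9 had r of at least 0.8, 23 were positive and 19 were highest on replicate 4. Mrto4, a factor of large-subunit assembly, read 11.36, 11.68, 11.57, 11.91, 11.41 and 11.58 (r = 0.95). Utp20, of the small-subunit processome, had r = 0.96. Ribosomal proteins had a median r of 0.65 over 16 genes with 6 at 0.8 or above, yet they spanned little: Rpl13 lay between 16.48 and 16.68, with r = 0.97 and 0.56 for its second probe. Odc1, the ornithine decarboxylase and a classical MYC target, read 12.33, 12.59, 12.34, 12.77, 12.46 and 12.76 (r = 0.88, 0.90 without replicate 4). The probe for mouse Mycn, whose reading of the human transgene was not tested, was at 10.53, 10.43, 10.25, 10.41, 10.61 and 10.41 and had r = -0.27 with Mki67. That value was 0.68 as deposited, 0.76 under scaling to E1A and -0.73 without replicate 3, so no direction is given for it.

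Neuroblast genes were on the side of Mki67 without being as uniform. Of 22 measured genes, 6 had r of at least 0.8 and 1 had r of at most -0.8, with a median of 0.56 (0.35 without replicate 4). Dlk1, a membrane-bound Notch ligand homologue of sympathoadrenal precursors, read 15.13, 15.51, 15.50, 15.97, 15.34 and 15.56 (r = 0.96, 0.89 without replicate 4). Lin28b, an inhibitor of let-7 processing that is amplified in some human neuroblastomas, lay between 10.38 and 10.76 (r = 0.95), but its second probe had r = 0.15. Pnoc, the precursor of nociceptin, read 11.86, 12.34, 12.40, 12.90, 11.91 and 12.22, with r = 0.89 with Mki67 and -0.93 with Th. Sox11, a factor of immature neurons, had r = 0.83 with Mki67 and -0.92 with Th. Neurod1 and Nhlh2, basic helix-loop-helix factors of neurogenesis, had r of 0.31 and 0.32 with Mki67, which were 0.70 and 0.67 as deposited and -0.30 and 0.00 without replicate 4, and the second Neurod1 probe had 0.71. Dll3, a Notch pathway ligand of neural precursors, had -0.86 (0.28 under scaling to E1A).

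Among catecholamine genes, Th itself included, 11 of 12 had a negative r with Mki67. Th and Dbh were the 2 with r of at most -0.8, and the median was -0.68. That median was -0.31 without replicate 4, 0.07 in the values as deposited and 0.38 under scaling to E1A, so its direction depends on the scaling. Dbh, the enzyme that makes noradrenaline from dopamine, read 16.76, 16.38, 16.48, 15.95, 16.85 and 16.66. Its r with Th was 0.97, and 0.89 without replicate 4, so these enzymes of the same pathway had a similar pattern; with Mki67 its r was -0.87 (0.18 under scaling to E1A). Slc6a2, the noradrenaline transporter, read 15.03, 14.21, 14.31, 13.86, 15.05 and 14.88 (r = 0.89 with Th). Cyb561, the electron carrier of the chromaffin vesicle membrane, had r = -0.79 with Mki67 and 0.84 with Th.

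The transcription factors that set the noradrenergic identity did not follow the enzymes as a list. Their median r with Mki67 was -0.20 over 9 genes, with 2 at -0.8 or below, and it was 0.63 as deposited and 0.80 under scaling to E1A. Phox2a, a homeobox factor needed for Dbh expression, read 15.44, 14.99, 15.14, 14.53, 15.12 and 15.07 (r = -0.96, -0.85 without replicate 4, 0.06 under scaling to E1A). Gata2 had r = -0.87, which was 0.04 as deposited and 0.27 under scaling to E1A. Isl1, a LIM homeobox factor that is active in dividing sympathetic neuroblasts, had r = 0.78, Gata3 0.19 and Hand2, a factor of the neuroblast state, -0.60. As deposited and under scaling to E1A, Gata3 came to 0.69 and 0.80 and Hand2 to 0.63 and 0.81. Hand2 and Th had r = 0.16.

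Genes of sympathetic neuron maturation were the list most opposed to Mki67. Of 27 measured genes 14 had r of at most -0.8 with Mki67 and none had r of at least 0.8, and the median was -0.82; 14 had r of at least 0.8 with Th, with a median of 0.81. Replicate 4 was lowest for 17 of the 27, and replicates 1 and 5 were highest for 9 and 10. The median with Mki67 was -0.44 without replicate 4, -0.17 as deposited and 0.22 under scaling to E1A, whereas that with Th was 0.61, 0.68 and 0.77. Syt1, the calcium sensor of transmitter release, read 15.85, 15.18, 15.28, 14.47, 15.69 and 15.35, with r = -0.95 with Mki67 and 0.92 with Th. Npy, a transmitter of noradrenergic neurons, read 14.47, 14.04, 13.71, 13.14, 14.46 and 14.13 (r = -0.83 with Mki67, 0.91 with Th). Both were highest on replicates 1 and 5 and lowest on replicate 4. Rgs4, a regulator of G protein signalling, read 13.59, 12.70, 13.06, 11.70, 12.75 and 12.64, a span of 3.71-fold, with r = -0.95 with Mki67 and 0.70 with Th. Syn1, a synaptic vesicle protein, had r = -0.95 with Mki67 (0.31 as deposited and 0.56 under scaling to E1A) within 12.59 to 13.05, and Vgf, a secreted neuropeptide precursor, had 0.97 with Th. Some genes went the opposite way from the list median: 6 of the 27 had a positive r with Mki67 and 6 a negative r with Th. Among them was Cartpt, another peptide precursor, with r = 0.77 with Mki67 and -0.82 with Th.

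**Figure D3:**
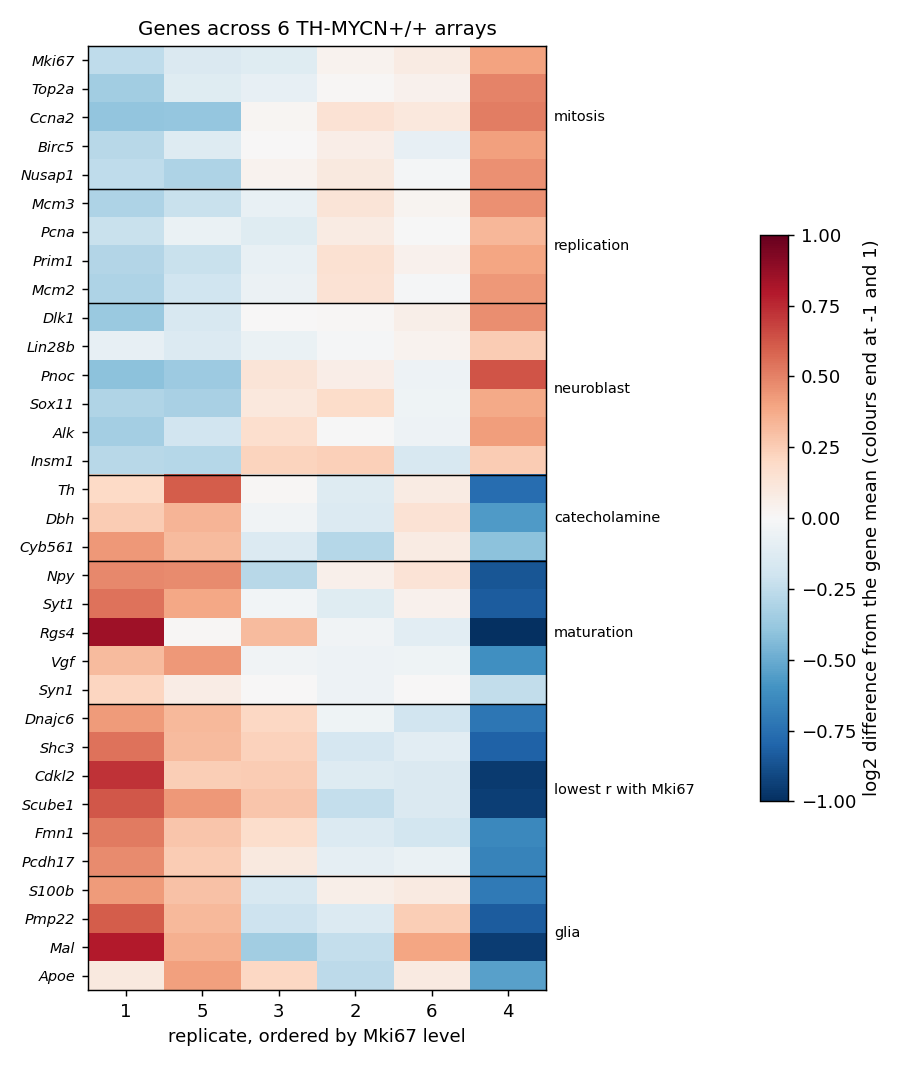
Log2 difference of named genes from their own mean on the 6 TH-MYCN+/+ arrays, which are ordered by Mki67 level from left to right. Replicate 4 is above the mean for the mitosis, replication and neuroblast genes and below it for the others, as with Syt1, which read 14.47 there and 15.85 on replicate 1.

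Across all genes that spanned at least 1 log2 unit, the closest relations with Mki67 were negative and belonged to genes outside the lists. That ranking and the values below are for the quantile-normalized scale. Over all genes, 1547 had r of at most -0.8 with Mki67 on that scale, but 52 as deposited and 21 under scaling to E1A. Negative relations of this size thus depended on the scaling. Dnajc6, or auxilin, which uncoats clathrin vesicles and is made mainly by neurons, read 6.91, 6.43, 6.68, 5.75, 6.80 and 6.29, with r = -0.996, or -0.99 without replicate 4. Its slope was -1.81 ± 0.15 log2 units per log2 unit of Mki67 (SE, n = 6), with an adjusted p of 0.139 in limma, which did not pass. Shc3, a neuronal adaptor of receptor tyrosine kinases, read 6.36, 5.65, 6.05, 5.01, 6.13 and 5.71 (r = -0.99). Cdkl2, a cyclin-dependent kinase-like protein found in neurons, read 12.002, 11.15, 11.53, 10.32, 11.53 and 11.14, a span of 3.21-fold, and its second probe had r = -0.80 where the used probe had -0.99. On these 3 genes replicate 4 was lowest and replicate 1 highest. Scube1, a secreted EGF-repeat protein, Fmn1, a formin, and Pcdh17, a protocadherin, each had r = -0.99, with -0.97, -0.995 and -0.96 without replicate 4. Gnal, a stimulatory G protein subunit, Slc7a8, an amino acid transporter, Atp1b1, the beta subunit of the sodium pump, Bcl2, the inhibitor of apoptosis, Vwc2l and Napb, a vesicle fusion protein, completed the 12 lowest at -0.98. Without replicate 4 these 6 ranged from -0.96 to -0.93. Bcl2 read 10.69, 10.15, 10.27, 9.48, 10.34 and 9.94.

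The 12 highest values with Mki67 among such genes ran from 0.94 to 0.96. They were Suco, Dipk1c, Cdca7, Nek2, Mcm10, Hus1, Yy2, Ankle1, Mis18a, Ercc6l, Opn3 and Rad54b. The probes of some of them disagreed: the mean of all Suco probes gave r = 0.16, and the second Rad54b probe had r = 0.46, while those of Ankle1 and Mis18a had 0.85 and 0.92. Cdca7, a cell division protein linked to MYC, read 10.47, 11.08, 10.96, 11.53, 10.78 and 11.02. Nek2, a kinase that splits centrosomes, read 8.56, 9.14, 9.13, 9.80, 8.94 and 9.42. Both put replicate 4 highest and replicate 1 lowest. Hus1, of the clamp that senses damaged DNA, and Ankle1, a nuclease, each kept r = 0.95 without replicate 4, while Ercc6l, a helicase of mitotic chromosomes, and Mis18a, a centromere licensing factor, came to 0.78 and 0.79.

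With Th, the 12 highest values among such genes ran from 0.97 to 0.99 and belonged to Fbxo2, Lst1, Slc10a4l, Cd55b, Ppp1r1b, Birc3, Bcam, Proser2, Sgcd, Rasl10a, Kcnc4 and Fxyd7. A second probe had r = 0.15 with Th for Lst1, 0.61 for Cd55b, 0.63 for Proser2 and 0.83 for Sgcd. Fbxo2, a ubiquitin ligase subunit for glycoproteins that is rich in neurons, read 13.25, 12.83, 13.05, 12.39, 13.55 and 13.06, and its r with Th was 0.99 with and without replicate 4. Ppp1r1b, the phosphatase inhibitor DARPP-32, read 7.90, 7.43, 7.51, 6.95, 8.10 and 7.65 (r = 0.98), and Kcnc4, a voltage-gated potassium channel, 9.71, 9.31, 9.23, 8.55, 9.95 and 9.56 (r = 0.98). On all 3 genes replicate 5 was highest and replicate 4 lowest, as for Th. The 12 lowest with Th ran from -0.99 to -0.95 and included genes of division, Cntrob of the centriole, Ska1 of the kinetochore, Pimreg and the helicase Ddx11, beside Fut9, a fucosyltransferase that makes a carbohydrate of neural precursors. Fut9 read 7.25, 7.57, 7.45, 8.16, 7.005 and 7.47, with r = -0.98 without replicate 4. The others were Arhgef39, Tnfsf9, Slc30a10, Tph2, Skida1, Fsbp and Rexo5.

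**Figure D4:**
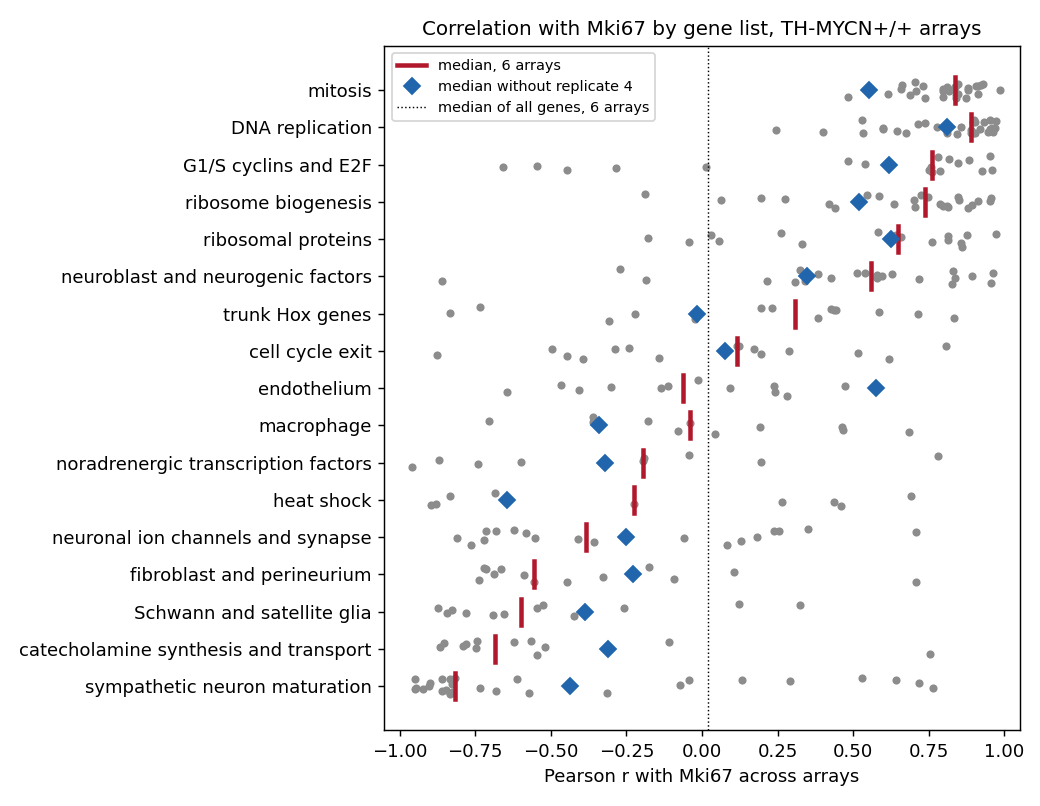
Pearson r with Mki67 over the 6 TH-MYCN+/+ arrays for every measured gene of 17 lists (grey points), with the list median over 6 arrays (red) and without replicate 4 (blue); the dotted line is the median over all genes, 0.02. Mitosis and DNA replication lie at 0.83 and 0.89, maturation at -0.82, and most medians move towards 0 without replicate 4.

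Glial and connective tissue markers lay on the side of Th. Of 12 Schwann and satellite cell genes 7 had r of at least 0.8 with Th and 3 had r of at most -0.8 with Mki67, with medians of 0.82 and -0.60; the latter was 0.38 under scaling to E1A. The mean level of this list was 10.46, 9.93, 10.02, 9.78, 10.47 and 10.33 on replicates 1 to 6, highest on replicates 1 and 5 and lowest on replicate 4. Pmp22, a myelin protein, read 13.98, 13.24, 13.18, 12.55, 13.70 and 13.63, and S100b, a calcium-binding protein of glia, had r = 0.89 with Th. The 13 fibroblast and perineurium genes had a median r of 0.71 with Th and -0.55 with Mki67, and their mean level was 11.56, 10.59, 11.16, 10.99, 11.51 and 11.71. Glial and maturation genes thus lay on the same side of the samples, and the part that the share of glial and connective tissue cells has in the neuronal values was not tested. Endothelial and macrophage genes had medians with Mki67 of -0.06 and -0.04, which were 0.58 and -0.34 without replicate 4.

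Markers of neighbouring tissue differed strongly between arrays. The mean level of 10 skeletal muscle genes was 11.12 on replicate 6 and 4.49 to 7.51 on the others, with Myh4, a fast myosin, at 15.46 there. Adipose genes averaged 10.87 on replicate 2 and 8.04 to 9.60 elsewhere, with Ucp1, the uncoupling protein of brown fat, at 13.73. Lymphocyte genes averaged 6.996 on replicate 5 and 4.43 to 5.45 elsewhere. Replicate 5 was also the one array with Xist, at 9.23 beside 1.02 to 1.40, and with a low Y-linked Eif2s3y, at 3.68 beside 10.48 to 10.80. These sex-linked genes set apart the array that was also highest for Th, and the part of sex in the Th values was not tested. Adrenal cortex genes averaged 5.50 on replicate 1 and 3.24 to 4.40 elsewhere. Without replicates 5 and 6, an alternative chosen after seeing the data, r of Mki67 with Alk was 0.86. Muscle genes made up most of the 12 genes with the largest SD, which were Myh4, Myh8, Tnnc2, Pvalb, Tnni2, Acta1, Syt10, Actn3, Cox6a2, Neb, Tmem128 and Myom2. Syt10, a synaptotagmin, read 11.08, 10.19, 8.32, 9.07, 4.20 and 8.77, and Tmem128, a membrane protein, 11.43, 16.65, 11.25, 11.66, 11.35 and 11.70. On replicate 4 itself Cpa3, a mast cell protease, read 8.27 beside 1.60 to 4.42. The mast cell list as a whole did not single out that array. Of its 7 genes, 2 were highest on replicate 4, 2 on replicate 1, 2 on replicate 6 and 1 on replicate 5. Only 3 of the 7 were above background on all 6 arrays.

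**Figure D5:**
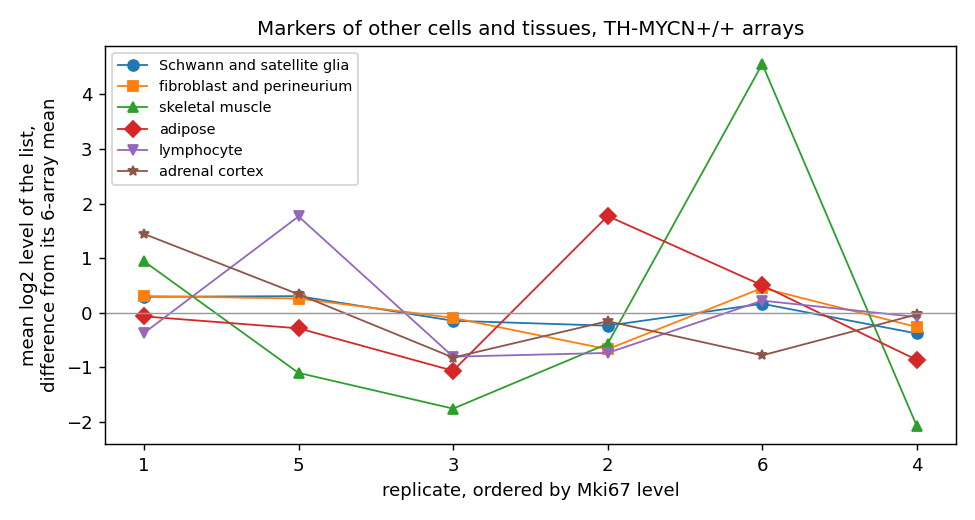
Mean log2 level of marker genes of 6 other cell types or tissues on each TH-MYCN+/+ array, as the difference from the list's mean over the 6 arrays, ordered by Mki67 from left to right. Skeletal muscle stands out on replicate 6, adipose on replicate 2 and lymphocytes on replicate 5, and glia is lowest on replicate 4 at 9.78 before subtraction.

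The mean of the 30 mitosis genes was also used as the index in place of Mki67 alone. On this index limma called 23 of the other 21863 genes as higher (0.105% called) and 300 as lower (1.37% called) at an adjusted p under 0.05, with a smallest adjusted p of 0.037. None was called when any one array was left out, so the count rests on every array, and the smallest adjusted p without replicate 4 was 0.426. Listed genes called as higher numbered 1, Pnoc, with a slope of 1.29 ± 0.13 log2 units per log2 unit of the index (SE, n = 6, limma adjusted p = 0.037). Those called as lower were Dbh and Slc6a2 of the catecholamine list, Chrnb4, Ngfr, Npy, Prph, Scg2 and Syt1 of the maturation list, Mal, Pmp22 and S100b of the glial list, and Hspa1a, a heat shock protein. Syt1 fell by 1.64 log2 units per unit of the index (SE 0.15, n = 6, limma adjusted p = 0.037). Ngfr, the low-affinity neurotrophin receptor, which Schwann cells make too, read 14.80, 14.27, 14.49, 13.64, 14.85 and 14.64, and Prph, the intermediate filament peripherin, 15.45, 14.85, 15.01, 14.48, 15.51 and 15.29. On both, replicate 4 was lowest and replicate 5 highest. None of the 31 replication genes and none of the 24 ribosome biogenesis genes was called, although Mcm3 had r = 0.95 with the index (limma adjusted p = 0.066).

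Beyond the lists, the genes called as lower with the smallest p-values that spanned at least 1 log2 unit included Kcnip4, a potassium channel-interacting protein, Cd55, an inhibitor of complement, and Nrp1, a receptor of semaphorins and VEGF. Kcnip4 read 11.36, 10.76, 10.77, 10.05, 11.35 and 11.06, Cd55 10.65, 9.90, 9.97, 9.32, 10.57 and 10.27, and Nrp1 8.46, 7.80, 7.93, 7.31, 8.33 and 8.12. In all 3 replicates 1 and 5 were highest and replicate 4 lowest, with replicates 2, 3 and 6 between.

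The wild-type arrays, which the choice of arrays did not use, were fitted in the same way among themselves. Over the 7 wild-type arrays the median r with Mki67 was 0.57 for mitosis, 0.55 for DNA replication, -0.06 for ribosome biogenesis and -0.01 for maturation. The TH-MYCN+/+ values of the same lists were 0.83, 0.89, 0.74 and -0.82. With Th, the wild-type medians were 0.09 for mitosis and 0.45 for maturation, and r of Mki67 with Th was -0.44. Over all genes the wild-type median was -0.06 with Mki67 and 0.17 with Th, beside 0.02 and -0.02 on the TH-MYCN+/+ arrays. The difference between the genotypes in these medians was not tested.

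A second probe of the same gene tests the probe choice. For 482 genes with r of at least 0.8 with Mki67 and a second probe, both above background, the second probe had a median r of 0.63 and 27.6% of them were also at 0.8 or above. For 486 genes at -0.8 or below the median was -0.65 and 34.0% were past the line, and with Th the medians were 0.72 and -0.65 over 460 and 410 genes. Second-probe medians kept the sign of the used probe and were smaller in size.

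The promoter letters were counted over whole lists. The windows used leave out part of the genome, and all windows below means all those used. Of 27 windows of 25 mitosis genes, 74.1% held CCAAT and 81.5% a CHR match, beside 37.4% and 13.8% of windows of genes above background on all 6 arrays, and 37.4% and 19.2% of all windows. DNA replication genes, with 32 windows, held CCAAT in 59.4%, CHR in 18.8% and the E2F letters in 34.4%, where 1.41% of windows of genes above background held the E2F letters. Of 18 windows of maturation genes, 22.2% held CCAAT, 11.1% CHR and 0 the E2F letters. Windows of all genes with r of at least 0.8 with Mki67 held CCAAT in 44.0%, CHR in 17.3%, E2F letters in 2.33% and the E-box in 11.6%, and those of genes at -0.8 or below in 34.3%, 12.2%, 0.592% and 7.63%. The E-box was in 9.49% of the windows of genes above background. These shares describe letters and not binding.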

How the data were processed

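Per the labels, total RNA was isolated with a column kit, labelled with Cy3 and hybridised to 1-colour Agilent arrays. Deposited values were taken as log2 intensities, base 2 being inferred from their range of 0.554 to 18.6; scanner software and background correction: not given in the sources used here. Of 55821 probes, 140 were controls, and 30626 of 55681 array probes carried 1 gene symbol in the platform annotation. The 6 TH-MYCN+/+ arrays were quantile normalized among themselves, and the probe with the highest mean stood for each of 21893 genes. Background was the 95th percentile of 96 ERCC probes; 14628 genes exceeded it on all 6 arrays, and all genes were fitted. Slopes were fitted in limma 3.58.1 (R 4.3.3) with empirical Bayes moderation, two-sided, and tested on simulated data. Single relations used exact permutation. Alternatives were other scalings, probes, filters, indices and left-out arrays, and most are named in the closing section. Also run, but not named there, were quantile normalization with all 13 arrays, genes above background only, and trended and robust variance. So were both indices in 1 model, and the mean of Dbh, Ddc and Slc18a2 as the Th index. Named genes were the 12 highest and 12 lowest r with each index and the 12 largest SD among genes above background spanning at least 1 log2 unit, up to 4 genes per list and a fixed set. Members and lists were chosen with earlier results of these data known. Some list genes were not analysed here. The number of arrays limits the precision.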

Additional observations from a re-analysis of the deposited data

Results flagged for a closer look

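In 9 of 92 measures examined for a sample far from the others, 1 array stood apart by Dixon's criterion for 6 samples. Chance flags about 1 measure in 20. Acta1, Actn3, Cox6a2, Myom2 and Tmem128 were named for their large SD on these same arrays, so the 9 cannot be set against that rate. On replicate 6 the muscle genes Acta1, Actn3, Cox6a2 and Myom2 were at 12.93, 10.92, 11.02 and 11.46, and Acta2, the smooth muscle actin, was at 9.59. On replicate 2 Tmem128 was at 16.65 and Cidea, a lipid droplet protein of brown fat, at 14.66. Ier2, an immediate early gene, was at 4.82 on replicate 1, and the background level of replicate 3 was 2.88, below that of the other arrays. None of these arrays was the one with the highest Mki67, and the cause of each was not tested.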

How the results depend on the processing

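No paired analysis was possible because each fit held the arrays of 1 genotype, so no fitted comparison had groups that share replicate numbers. The count called with Mki67 was 0 under each alternative except the mean of the mitosis genes as index, with 323, and that of 323 was 0 without any one array and 0 without replicates 5 and 6. The count called with Th was 0 under each alternative except scaling to E1A, with 177. Scaling to E1A adds a shift shared by all genes of an array. It gave an r of 0.049 for Mki67 with Th, 0.021 for Th with Alk, -0.23 for Th with Insm1 and 0.89 for Mki67 with Insm1, and a median r with Mki67 of 0.95 for mitosis and 0.22 for maturation and with Th of -0.074 for mitosis and 0.0037 for DNA replication. It also gave r with Mki67 of 0.21 for Cdkn1a, 0.28 for Dll3, 0.18 for Dbh, 0.060 for Phox2a, 0.27 for Gata2, 0.56 for Syn1, 0.10 for Vgf and 0.011 for S100b, and 0.084 for Top2a with Th. As deposited, r was -0.70 for Mki67 with Th, 0.85 for Mki67 with Insm1, -0.69 for Th with Insm1 and -0.73 for Th with Alk, the medians were -0.17 for maturation with Mki67 and -0.73 for mitosis with Th, and Gata2 and Syn1 came to 0.038 and 0.31. The mean of all probes gave -0.82 for Mki67 with Th and 0.0066 for Cdkn1a, and lowered r with Mki67 to 0.16 for Suco, 0.54 for Lin28b and 0.62 for E2f7. Median and 75th percentile centring gave -0.98 and -0.97 for Mki67 with Th, and -0.73 and -0.67 for Th with Insm1. The rho of Th with Insm1, -1, was -0.77 as deposited, -0.83 with median centring and -0.029 with E1A scaling. It was -1 without replicates 5 and 6, where 4 arrays cannot pass 0.05 and an exactly opposite order is kept apart from renormalization. Leaving out 1 array gave r from -0.91 to -0.51 for Mki67 with Th, 0.55 to 0.99 for Mki67 with Alk, -0.86 to -0.67 for Th with Insm1, -0.92 to -0.56 for Th with Alk and 0.78 to 0.94 for Insm1 with Alk, and median r of mitosis from 0.55 to 0.90 with Mki67 and -0.93 to -0.73 with Th; 5 arrays leave few pairings. Without replicates 5 and 6, r was -0.99 for Mki67 with Th, and 0.86, -0.63, -0.86 and 0.86 for the last 4 pairs in that order. Apart from E1A scaling as named, the cause of these differences was not tested.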
